A study of Xenopus laevis with 12 samples.

Results

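Chromatin modifiers and transcription cofactors are the proteins that write, read and erase marks on histones and DNA, move nucleosomes, and link transcription factors to RNA polymerase. Their mRNAs were taken by symbol from the 2 gene tables that the authors deposited, a Staufen table and an hnRNPab table. The rule took families such as the histone methyltransferases (setd, suv39h, prdm), deacetylases (hdac, sirt), bromodomain, PHD and chromodomain proteins (brd, phf, cbx), JADE and ING subunits of acetyltransferase complexes, BAF subunits (smarc), Mediator (med) and the histones themselves (hist). It found 59 genes, or 52 symbols once the .L and .S homeologs of a gene (the copies left by the genome duplication of Xenopus laevis) are counted once, of 3968 genes in either table and 51061 in the count files. The Staufen table alone listed 32 of them and the hnRNPab table alone 20, and 7 were listed in each.

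A growing frog oocyte stores mRNAs that the embryo will use during its early cleavages, before its own genome is transcribed, and the stock includes histones and many chromatin proteins. Methyltransferases and acetyltransferases add groups to histone tails, demethylases and deacetylases remove them, and reader domains recruit further complexes to the marked tails. Some maternal mRNAs are moved to the vegetal cortex in L-bodies, large assemblies of RNA and protein that contain the RNA-binding proteins Staufen and hnRNPab.

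The libraries came from X. laevis oocytes of stages II and III, pooled. Fractions rich in L-bodies were taken from a sizing column. By the labels, RNA was recovered from them with antibody to Staufen (4 libraries), antibody to hnRNPab (4 libraries) or IgG as the control (4 libraries). The IgG-labelled libraries thus come from the same fractions as the rest. The labels give no strain, genotype or frog of origin, and whether the replicates are separate pools is not stated; p-values therefore speak only of library-to-library spread, possibly technical. Gene counts per library ran from 14147584 to 22103431, and the floor used for an undetected gene, 3 counts, equals 0.136 to 0.212 in counts scaled to a common library size (CPM). Reads counted as outside annotated exons came to 14.3% ± 0.607 (SD, n = 4) in the libraries labelled Staufen, 12% ± 0.872 (SD, n = 4) in those labelled hnRNPab and 18.4% ± 1.16 (SD, n = 4) in those labelled IgG. This share moves with the labels and its part in the differences below was not tested. Replicate 1 differed most from the others in each group, and the counts of members below are given with and without it. For the 17 oocyte marker symbols looked for, the named genes held 4 genes (ccnb1.L, ccnb1.S, mos.L and vegt.S), with ccnb1 counted for both copies. They held 0 for the 12 follicle and theca cell symbols and 0 for the 11 stromal and endothelial ones. For the 10 blood symbols they held 1 (slc4a1.L). A marker could be found by name only if a deposited table listed it. A level is a share of the RNA recovered from pooled oocytes, in which fewer oocytes holding an mRNA and less of it per oocyte cannot be told apart.

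Labels and tables did not match, for the members or for all genes listed. For the 7 members that both deposited tables list, the Staufen value minus the hnRNPab value should give Staufen against hnRNPab if both tables used the same control. That difference lay a median of 0.0147 (log2) from the libraries labelled hnRNPab minus those labelled IgG, against 0.240 from Staufen minus IgG and 0.747 from Staufen minus hnRNPab. Over all 448 tested genes that both tables list, these medians were 0.0148, 0.354 and 0.545, so the mismatch is not particular to the members. In the case of phf2.L, the authors' deposited tables gave 1.08 for Staufen and 1.69 for hnRNPab, and the libraries labelled hnRNPab differed from those labelled IgG by -0.63. No single pair of labelled groups gave back the fold changes of either table. The closest pair for the 39 members in the authors' deposited Staufen table was hnRNPab over Staufen, at a median gap of 0.373, followed by hnRNPab over IgG at 0.445, and for the 27 members in the hnRNPab table it was IgG over hnRNPab, at 0.466. Over all 2422 tested genes of the Staufen table hnRNPab over IgG came first (0.468), then hnRNPab over Staufen (0.488). Over all 1930 of the hnRNPab table IgG over hnRNPab was again the closest (0.518). All directions below refer to the label of a library and not to the antibody behind it.

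Membership itself came from enrichment that the authors measured. Every gene in the authors' deposited tables had a log2 fold change of at least 0.85 and an adjusted p below 0.05, and names exist only for such genes. The members' values in the authors' deposited Staufen table ran from 0.85 to 2.29 with a median of 1.21, beside a median of 1.24 for the whole table, and in the hnRNPab table from 0.85 to 1.69 with a median of 1.10 beside 1.18. Just inside the threshold lay med18.S (0.85), jade3.S (0.87) and smarcc2.L (0.87) for Staufen, and phf13.L (0.85), ncoa4.S (0.86) and prdm2.L (0.88) for hnRNPab, in the authors' deposited tables. Values outside it were not analysed here. In the count files all 59 members passed the filter on low counts.

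By exact symbol, 50 of 335 reference genes of these families (14.9%) were matched by a member. The shares were 2 of 5 for scaffolds of the Polycomb deubiquitinase (40%), 8 of 24 for subunits of acetyltransferase and elongation complexes, the mllt genes included (33.3%), 14 of 56 for bromodomain, PHD and chromodomain readers (25.0%), 6 of 34 for deacetylases and corepressors (17.6%), 4 of 24 for acetyltransferases and coactivators (16.7%) and 1 of 6 for DNA methylation and its removal (16.7%). They were 7 of 64 for methyltransferases and PRDM factors (10.9%), 5 of 56 for remodelers (8.93%), 3 of 46 for Mediator (6.52%) and 0 of 20 for the kdm demethylases. Over all reference genes with a symbol, 2495 of 22425 (11.1%) were named in a table, and the differences between families were not tested. The 9 histone genes had no match by symbol in that reference, and the other 50 members all had one. Over all 3964 named genes 2495 reference symbols were matched, so the 11.1% may be lowered more than the 14.9%. Genes whose names differ between the deposited tables and the reference are missed, so any of these shares may be too low. This includes the 0 of 20 for the kdm genes. None of the 9 histones was in the hnRNPab table. Of the 8 acetyltransferase and elongation complex genes, 5 were in the hnRNPab table alone, 2 in the Staufen table alone and 1 in both, and of the 7 methyltransferase and PRDM genes 2 were in the hnRNPab table alone and 5 in the Staufen table alone.

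**Figure D1:**
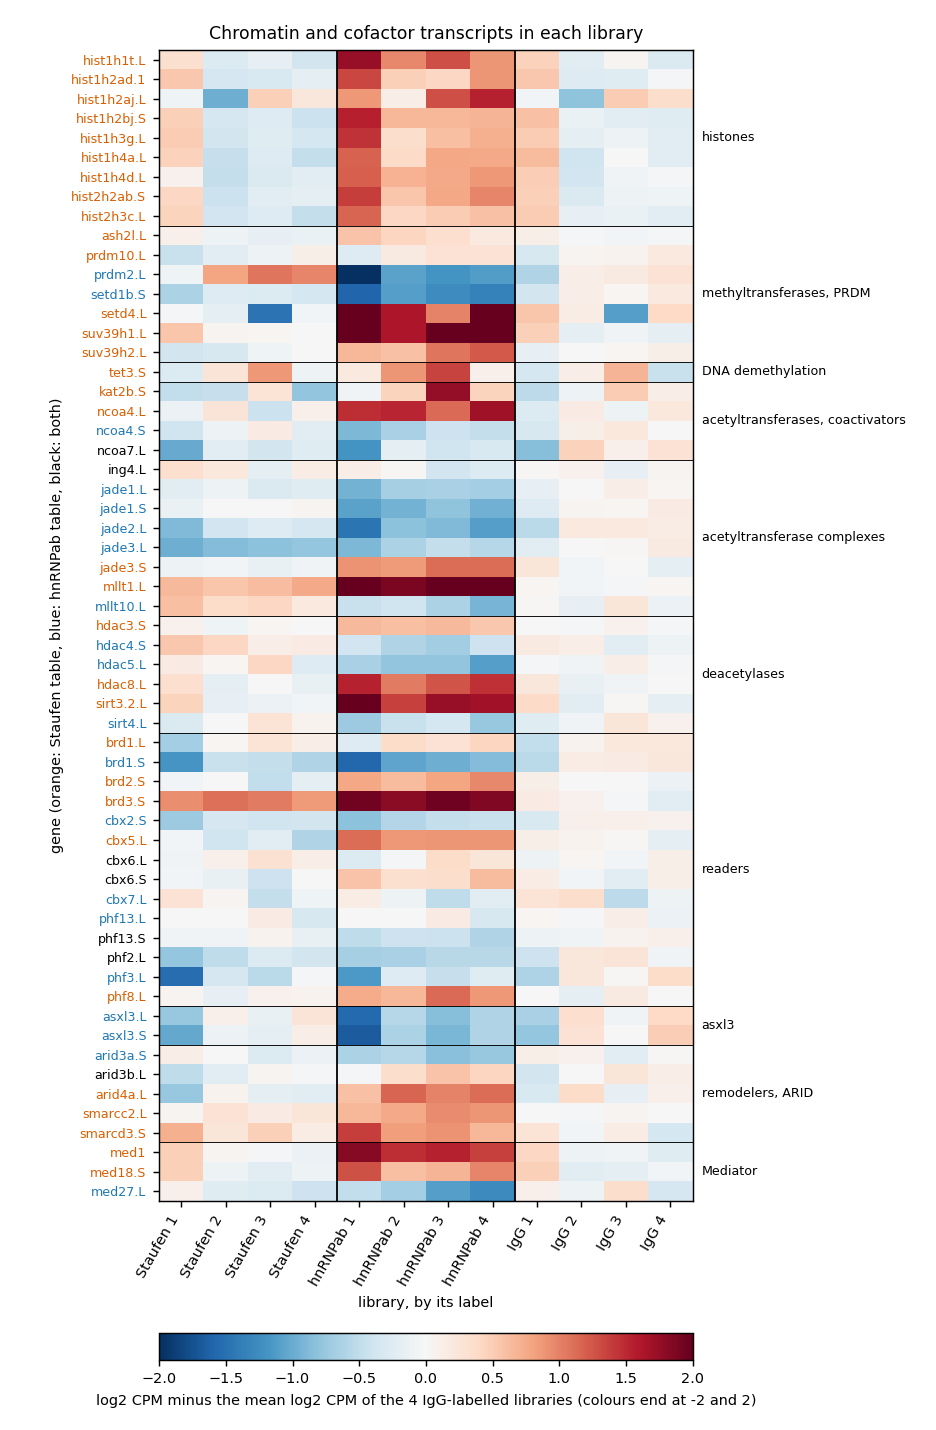
Each row is 1 of the 59 genes and each column 1 library; colour gives log2 CPM minus the mean log2 CPM of the 4 IgG-labelled libraries (red higher, blue lower, colours ending at -2 and 2). Genes named by the Staufen table (orange) are mostly red and those named by the hnRNPab table (blue) mostly blue in the hnRNPab-labelled columns, while most rows are pale in the Staufen-labelled columns.

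Between the libraries labelled hnRNPab and those labelled IgG, members passed the test in both directions. Among the largest rises were mllt1.L, suv39h1.L and brd3.S, which encode a reader in elongation complexes, a heterochromatin methyltransferase and a bromodomain protein, and among the largest falls setd1b.S, prdm2.L and brd1.S. With edgeR's quasi-likelihood test over 20803 genes at an adjusted p of 0.05, 27 of the 59 members were higher and 19 lower, where 16.3% of all tested genes were higher and 17.4% lower. The 2 deposited tables fix the sign here: of the members in the Staufen table alone 26 of 32 were called higher and 0 lower, and of those in the hnRNPab table alone 17 of 20 were lower and 0 higher, so these counts describe the tables and support nothing further (at an unadjusted p under 0.05 and with DESeq2 the counts of 0 stayed 0). All 4 libraries of the group lay above every IgG-labelled library for 24 members and below for 17 (all genes 15.2% and 16%), and 34 members were higher and 21 lower in all 4 same-numbered pairs (32.6% and 34.8%). With the replicate number as a block, 34 were higher and 22 lower (31.3% and 33.3%). Among the 7 members that are in both tables, 1 was higher, 2 were lower and 4 did not pass. Without replicate 1 of the 3 groups, 29 members were higher and 21 lower (all genes 18.5% and 18.6%). The median log2 difference over the members was 0.47, beside -0.02 over all genes tested. It was 0.90 for members in the Staufen table alone and -0.72 for those in the hnRNPab table alone. All tested genes so listed gave medians of 0.96 (83% higher) and -0.95 (82.9% lower). This median, the counts above and the counts by family below therefore follow the listing and support nothing further about the members. With the block all 46 calls were kept. On leaving out any 1 library from the fit without the block, 40 of the 46 were kept. The other 6, all histone and asxl3 genes, are described below.

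Between Staufen and IgG labels the number of members that passed depended on whether the replicate number was in the fit. Without it mllt1.L and brd3.S rose and jade3.L and cbx2.S fell, and 55 members did not pass, so that 3.39% were higher and 3.39% lower, near the 4.45% and 3.33% of all genes. The same-numbered libraries deviated together (r of 0.783 to 0.875 for the 12 same-numbered pairs of libraries). With the replicate number as a block, 8 members were higher (13.6%) and 20 lower (33.9%), where 19% of all genes were higher and 20.5% lower. The 4 libraries lay above all IgG-labelled ones for 2 members and below for 2 (all genes 6.67% and 5.67%). By number, 11 members were higher and 27 lower in all 4 same-numbered pairs (all genes 24.4% and 26.7%). Without replicate 1 of the 3 groups the fit without the block called 3 members higher and 7 lower (all genes 6.49% and 6.04%). Without IgG 1 alone it called 6 lower: brd1.S (0.0169 to 0.0423, passed also without hnRNPab 1), jade2.L (0.0364), setd1b.S (0.026) and phf2.L (0.013) were then added to cbx2.S and jade3.L (edgeR adjusted p). With the block and all libraries these 4 passed too (brd1.S 3.67e-12, jade2.L 8.19e-09, setd1b.S 2.88e-07 and phf2.L 7.27e-06). The median over the members was -0.10, beside -0.01 over all genes tested. All tested genes of the hnRNPab table alone gave a median of -0.365 and those of the Staufen table alone 0.07. With the block, 69.2% of the first kind and 14.1% of the second were lower, and 6.21% and 31.3% higher. Genes in both tables had a median of -0.22 (53.8% lower and 13.2% higher with the block). The counts above and the members' median thus go with the listing and support nothing further about the members.

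Between the libraries labelled Staufen and those labelled hnRNPab, 13 members were higher and 30 lower, beside 16.5% and 16.3% of all genes, and the median was -0.52 beside 0.02. The deposited tables go with the sign here too. The 32 members listed by Staufen enrichment alone gave 28 lower and 0 higher calls, and the 20 listed by hnRNPab enrichment alone gave 12 higher and 0 lower (with DESeq2 29 lower and 0 higher, and 13 higher and 0 lower; at an unadjusted edgeR p under 0.05 again 29 and 0, and 13 and 0). Among all genes so listed, 80% of the first kind were lower and 55.6% of the second kind higher, so these counts likewise support nothing further about the members. Libraries did not overlap for 12 members above and 23 below (15.5% of all genes each way), all 4 same-numbered pairs pointed up for 19 and down for 35 (34.9% and 33.2%), and with the block 18 were higher and 35 lower (33.1% and 31.5%). Without replicate 1 of the 3 groups these counts were 16 and 31 (all genes 18.8% and 18.1%). With the block all 43 calls were kept. On leaving out any 1 library from the fit without the block, 33 of the 43 were kept. Besides 5 histones, the calls of arid3b.L (without Staufen 1, Staufen 2, hnRNPab 2, hnRNPab 3 or hnRNPab 4), jade2.L (Staufen 2, Staufen 3, Staufen 4, hnRNPab 1 or hnRNPab 4), med27.L (Staufen 1, hnRNPab 3 or hnRNPab 4), ncoa4.S (Staufen 2, Staufen 3, hnRNPab 1 or hnRNPab 2) and smarcd3.S (Staufen 2, Staufen 3, Staufen 4, hnRNPab 1 or hnRNPab 3) were lost, at edgeR adjusted p of 0.0506 to 0.104. These 3 comparisons share libraries, so their counts are not independent of each other.

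**Figure D2:**
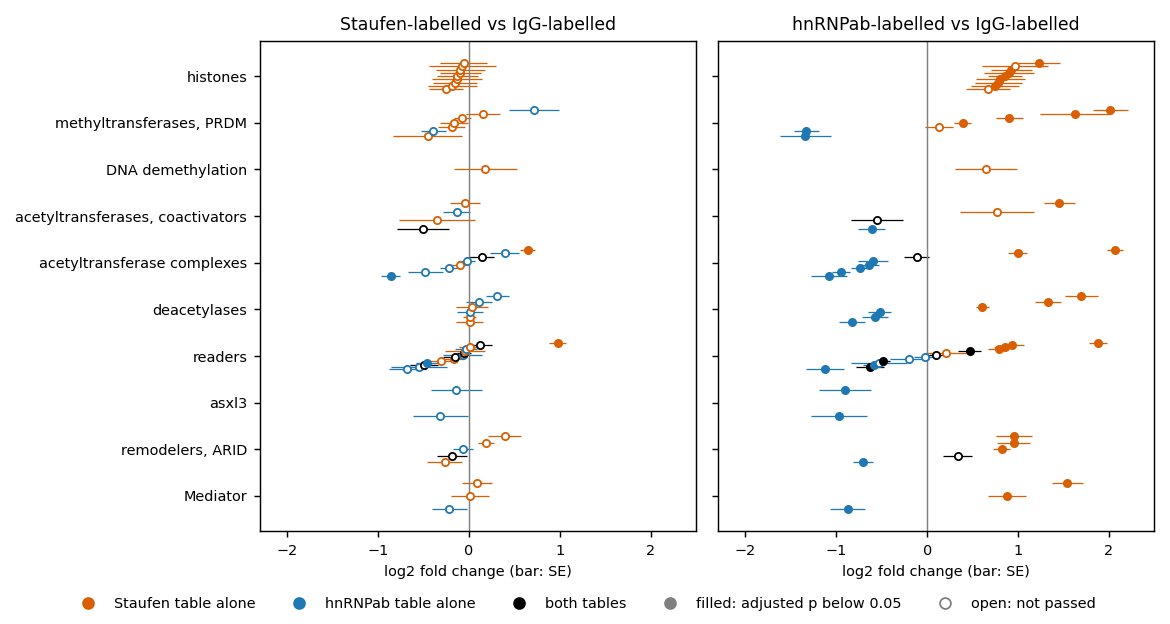
Points are log2 fold changes of the 59 members, by family, with bars for the standard error; filled points passed an adjusted p of 0.05 in the fit without the replicate block. Left, libraries labelled Staufen against IgG, where only mllt1.L, brd3.S, jade3.L and cbx2.S are filled; right, libraries labelled hnRNPab against IgG, where orange points (Staufen table) lie right of 0, blue points (hnRNPab table) left of it and black points (both tables) on either side.

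Histones held the largest share of the members' reads. CPM is a share of reads and is not corrected for transcript length, so levels are compared here between libraries and not between genes. The 9 histone genes together held 5139 ± 1616 CPM in the libraries labelled Staufen, 9816 ± 2901 in those labelled hnRNPab and 5654 ± 1582 in those labelled IgG (SD, n = 4). Most of this came from a histone H3 gene and a histone H2B gene.

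The H3 gene hist2h3c.L (gene49471) had 3429, 1919, 2111 and 1799 CPM in Staufen-labelled replicates 1 to 4, 5627, 3360.0, 3564 and 3781 in the hnRNPab-labelled ones and 3594, 2238, 2295 and 2166 in the IgG-labelled ones. Replicate 1 was the highest of each group, and the highest IgG-labelled library lay above the lowest hnRNPab-labelled one. Its log2 difference between hnRNPab and IgG labels was 0.67 (SE 0.24, edgeR adjusted p = 0.0524), not passed, and 0.67 with the replicate block (adjusted p = 1.36e-13). It passed without Staufen 1, hnRNPab 2 or IgG 1 (adjusted p 0.0144 to 0.04995). The H2B gene hist1h2bj.S (gene49174) had 3116, 1788, 1887 and 1676 CPM in Staufen-labelled, 6568, 3562, 3570.0 and 3601 CPM in hnRNPab-labelled and 3380.0, 2056, 1941 and 1892 CPM in IgG-labelled replicates 1 to 4. All 4 hnRNPab-labelled libraries lay above all 4 IgG-labelled ones, at a log2 difference of 0.90 (SE 0.27, edgeR adjusted p = 0.023).

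The linker histone gene hist1h1t.L (gene42973) gave 100.3, 66.6, 72 and 62.6 CPM in libraries labelled Staufen, 271, 158, 196 and 148 in those labelled hnRNPab and 111, 68.7, 83.6 and 66 in those labelled IgG. Its difference of 1.23 (log2, SE 0.23, edgeR adjusted p = 0.0012) between hnRNPab and IgG labels was the largest of the 9. In all, 7 of the 9 histones were higher in that comparison and 2 did not pass (hist2h3c.L and hist1h2aj.L), with 9 of 9 higher under the replicate block and with DESeq2. Of all genes tested 16.3% were higher. All 9 histones are in the Staufen table alone, and of the 1974 tested genes so listed 83% were called higher and 0 lower. The listing thus fixes the sign, and the count supports nothing further about histones. The family spans both core and linker types: hist2h2ab.S, an H2A gene, was at 0.93 (adjusted p = 0.00716), hist1h4d.L, an H4 gene, at 0.86 (0.00355), and hist1h2ad.1, another H2A gene, at 0.78 (0.0364), all in edgeR. The H3 gene hist1h3g.L was at 0.80 (edgeR adjusted p = 0.0374), the H4 gene hist1h4a.L at 0.74 (0.0494) and the H2A gene hist1h2aj.L at 0.97 (0.0608; 4.39e-14 with the block). Between Staufen and hnRNPab labels all 9 were lower, by a median of -1.02 and a range of -1.36 to -0.82, where 80% of all genes so listed were lower. Set against IgG, the libraries labelled Staufen differed by -0.25 to -0.06, and 0 of 9 passed with edgeR, with DESeq2 or at an unadjusted p under 0.05 (3 were lower under the block, hist1h4d.L at 0.00128, hist2h3c.L at 0.00876 and hist1h2bj.S at 0.0241).

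Some of these histone calls, in the fit without the block, were lost when any of several single libraries was left out. Between hnRNPab and IgG labels, hist1h2bj.S lost its call without hnRNPab 1, IgG 2, IgG 3 or IgG 4 (edgeR adjusted p 0.0658 to 0.0887), hist1h2ad.1 without those 4, Staufen 4 or hnRNPab 4 (0.0505 to 0.135), hist1h3g.L without those 4, Staufen 3 or hnRNPab 4 (0.0522 to 0.145) and hist1h4a.L without any library but Staufen 1, hnRNPab 2 and IgG 1 (0.0586 to 0.158). Between Staufen and hnRNPab labels, hist2h3c.L, hist1h3g.L and hist1h4a.L lost theirs without Staufen 2, Staufen 3, Staufen 4 or hnRNPab 1 (0.0557 to 0.0828), hist1h2ad.1 without those or hnRNPab 4 (0.0571 to 0.0963), and hist1h2aj.L without any library but Staufen 3, hnRNPab 2 and IgG 2 (0.0518 to 0.136). The gene hist1h2aj.L passed between hnRNPab and IgG labels without Staufen 2 or hnRNPab 2 (0.0244 to 0.0403), and its call between Staufen and hnRNPab labels was lost without replicate 1 of the 3 groups (log2 -1.07, edgeR adjusted p = 0.123). Replicate 1 carried more histone sequence than the others in every group: its level over the mean of replicates 2 to 4 had a median of 1.75 over the 9 genes in Staufen-labelled libraries, 1.58 in hnRNPab-labelled ones and 1.61 in IgG-labelled ones, against 0.967 in Staufen-labelled, 0.929 in hnRNPab-labelled and 0.941 in IgG-labelled ones for the other 50 members. The exception was hist1h2aj.L, where replicate 1 was below that mean in each group (0.923 for Staufen, 0.846 for hnRNPab and 0.886 for IgG labels). Over all genes tested, the 5th to 95th percentiles of this ratio were 0.426 to 1.66 in Staufen-labelled libraries. They were 0.429 to 1.68 in hnRNPab-labelled and 0.447 to 1.74 in IgG-labelled ones. The histone medians under the hnRNPab and IgG labels lay inside these ranges. Histone genes come in near-identical copies, so reads may be split between them and the share of each gene is uncertain.

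**Figure D3:**
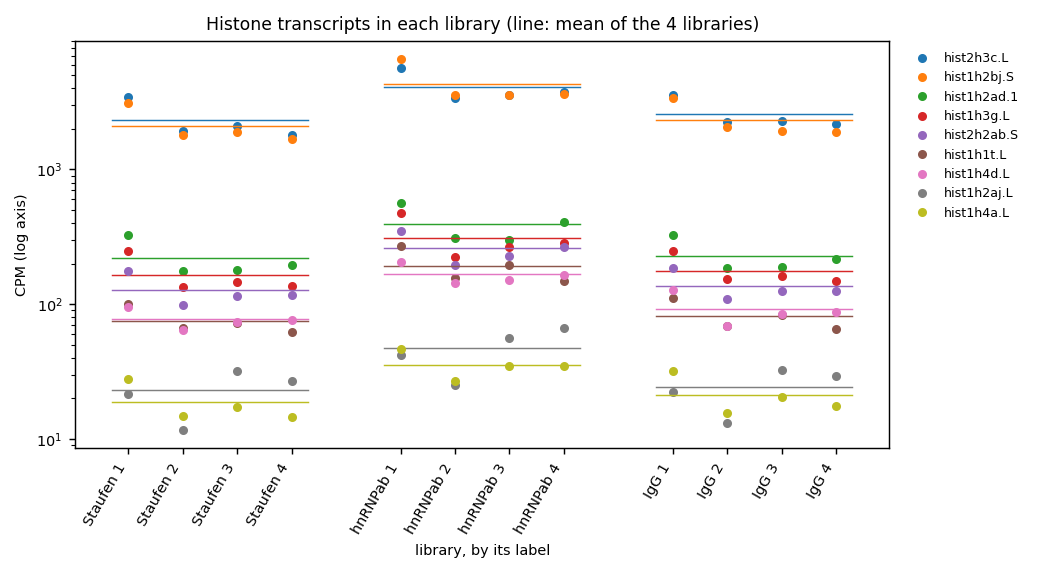
CPM of the 9 histone genes in each library on a log axis, with a line at the mean of the 4 libraries of a group. The hnRNPab-labelled means lie above those of both other groups for each gene, and replicate 1 is the highest point of its group for every gene but hist1h2aj.L.

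The class of histone lysine methyltransferases, their COMPASS subunit ash2l and PRDM factors went both ways between hnRNPab and IgG labels, with 4 of 7 genes higher, 2 lower and 1 not passed. The largest rise was that of suv39h1.L (gene10701), which encodes a methyltransferase that marks heterochromatin. Its level was 81.3, 57.7, 57.4 and 55.9 CPM in libraries labelled Staufen, 261, 171, 245 and 239 in those labelled hnRNPab and 77, 48.5, 52.7 and 48.6 in those labelled IgG, with no overlap between the hnRNPab-labelled libraries and the rest. The log2 difference from IgG was 2.01 for hnRNPab labels (SE 0.19, edgeR adjusted p = 7.87e-06) and 0.15 for Staufen labels (0.83). Its relative suv39h2.L was at 0.91 for hnRNPab labels (0.000549) and -0.19 for Staufen labels (0.637; 0.0398 with the block), and cbx5.L, which encodes an HP1 protein that binds the mark these enzymes make, at 0.94 (0.00012) and -0.31 (0.2; 0.00192 with the block).

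Of the same family, setd4.L (gene4040) had 27.4, 24.5, 10.1 and 26.8 CPM in Staufen-labelled, 122, 85.5, 55.2 and 113 CPM in hnRNPab-labelled and 40.7, 30.9, 13 and 36.9 CPM in IgG-labelled replicates 1 to 4. Replicate 3 was the lowest in every group, and the groups kept their order within each number. Its difference was 1.63 (log2, SE 0.38) for hnRNPab over IgG labels (edgeR adjusted p = 0.00583) and -0.45 for Staufen over IgG labels (0.672; 2.63e-05 with the block). The trithorax-type COMPASS subunit ash2l.L rose by less, 0.39 (0.00672).

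The falls of the family were setd1b.S and prdm2.L. In setd1b.S (gene18807), which encodes a methyltransferase of active promoters, the libraries labelled Staufen held 248, 323, 318 and 302 CPM, those labelled hnRNPab 129, 179.9, 161 and 152 and those labelled IgG 300.3, 425, 397 and 441. The hnRNPab-labelled libraries were all below the other 8, at a log2 difference from IgG of -1.33 (SE 0.14, edgeR adjusted p = 1.87e-05). For prdm2.L (gene4095), a zinc finger protein with a methyltransferase-like domain, the values were 65.8, 121, 148 and 138 CPM under the Staufen label, 17.3, 33.3, 30.4 and 32.4 CPM under hnRNPab and 46.3, 77.1, 79 and 85 CPM under IgG. This was the member with the widest spread between Staufen and hnRNPab labels on the higher side, at 2.06 (log2, SE 0.29, adjusted p = 0.000153), and it also lay below IgG in the libraries labelled hnRNPab (-1.34, 0.00269). Against IgG the libraries labelled Staufen were at 0.71, which did not pass (edgeR adjusted p = 0.161), passed without Staufen 1 (0.0385) and passed with the block (1.56e-11). The DNA-binding factor prdm10.L was at 0.13 for hnRNPab labels (0.588; 0.036 with the block), at -0.16 for Staufen over IgG labels (0.741; 0.016) and at -0.29 for Staufen over hnRNPab labels (0.183; 1.77e-05).

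The only gene of DNA methylation or its removal was tet3.S (gene13861), which encodes an enzyme that oxidises methylated cytosine. It had 38.5, 55.2, 84.2 and 43.1 CPM in Staufen-labelled libraries, 52.9, 85.4, 118 and 49.5 in hnRNPab-labelled ones and 36.2, 50.9, 74 and 33.9 in IgG-labelled ones. The ranges overlapped, while in all 4 numbers the hnRNPab-labelled library was the highest of the 3. Without the block its difference between hnRNPab and IgG labels of 0.65 (log2, SE 0.34) did not pass (edgeR adjusted p = 0.176), and with the block it did (0.63, SE 0.06, adjusted p = 2.64e-11). The same held for Staufen over IgG labels (0.18, 0.927; 0.0152 with the block) and Staufen over hnRNPab labels (-0.47, 0.343; 6.34e-08).

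Subunits of acetyltransferase and elongation complexes held the largest rise of the set. Of the 8 genes, 2 were higher, 5 lower and 1 did not pass between hnRNPab and IgG labels. The rise was that of mllt1.L (gene42220), which encodes ENL, a reader of acetylated histones in elongation complexes. Levels in CPM were 119.7, 112, 116 and 129 in the libraries labelled Staufen, 328, 282, 345 and 321 in those labelled hnRNPab and 78.6, 73.5, 74.1 and 78.5 in those labelled IgG. None of the 3 groups overlapped another. The log2 difference from IgG was 2.07 for the libraries labelled hnRNPab (SE 0.083, edgeR adjusted p = 2.13e-08), with those labelled Staufen at 0.65 (SE 0.081, 0.000575).

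JADE proteins are PHD finger scaffolds of the HBO1 acetyltransferase complex. The gene jade2.L (gene13698) had 207, 292, 318 and 301 CPM under the Staufen label, 139, 216, 206 and 178 CPM under hnRNPab and 262, 435, 438 and 424 CPM under IgG. Within each group replicate 1 was the lowest, and within each number the order IgG, Staufen, hnRNPab held. The difference of hnRNPab from IgG labels was -1.08 (log2, SE 0.20, edgeR adjusted p = 0.001). For jade1.S (gene3615) the libraries labelled Staufen gave 138, 152, 151 and 156 CPM, those labelled hnRNPab 72.1, 78.8, 86.9 and 77.3 and those labelled IgG 127, 157, 155 and 169, so that Staufen and IgG labels overlapped and hnRNPab labels lay below both (-0.95 against IgG, 1.47e-05). In jade1.L the same comparison gave -0.73 (0.000161). Staufen over IgG labels gave -0.22 in jade1.L (0.272; 0.0179 with the block) and -0.48 in jade2.L (0.185; 8.19e-09).

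The gene jade3.L (gene15777) was lower in the libraries of both antibody labels than in those labelled IgG. It had 109, 118, 120.5 and 125 CPM in libraries labelled Staufen, 115, 138, 154 and 144 in those labelled hnRNPab and 186, 214, 217 and 242 in those labelled IgG, and the IgG-labelled libraries lay above the other 8. The differences from IgG were -0.86 for Staufen labels (log2, SE 0.11, edgeR adjusted p = 0.000522) and -0.64 for hnRNPab labels (SE 0.11, 0.000528), and both kept their call on leaving out any library. The authors' deposited hnRNPab table gave jade3.L 1.12 (log2), with the opposite sign and against a control it does not name. This was not particular to jade3.L, since all 20 members of that table alone were at -0.0237 or less between hnRNPab and IgG labels. Between Staufen and hnRNPab labels it was at -0.22 (0.139; 0.000794 with the block). The AF10 gene mllt10.L, whose product works with the methyltransferase DOT1L, was at 12.9, 10.9, 11.2 and 9.66 CPM in Staufen-labelled, 6.20, 6.41, 5.45 and 4.46 in hnRNPab-labelled and 8.63, 7.58, 10.02 and 7.83 in IgG-labelled libraries. Here the Staufen label was highest: it differed from hnRNPab labels by 0.99 (log2, SE 0.16, 0.000488), while hnRNPab against IgG labels gave -0.60 (0.0123), a call lost when no filter on low counts was applied (adjusted p = 0.0535). Staufen against IgG labels gave 0.39 (0.185; 0.00224 with the block). The tumour suppressor ing4.L, a PHD subunit of the HBO1 acetyltransferase complex, did not pass in any comparison (0.14, -0.12 and 0.26 for Staufen over IgG, hnRNPab over IgG and Staufen over hnRNPab labels, edgeR adjusted p of 0.751, 0.591 and 0.191). The last of these passed with the block (0.00112).

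Among acetyltransferases and genes named as coactivators, ncoa4.L rose, ncoa4.S fell and 2 of 4 did not pass between hnRNPab and IgG labels. The acetyltransferase gene kat2b.S was low, though above the floor, with 1.09, 1.11, 1.84 and 0.883 CPM in Staufen-labelled, 1.45, 2.06, 5.16 and 2.07 in hnRNPab-labelled and 1.05, 1.41, 2.15 and 1.67 in IgG-labelled libraries. The ranges overlapped, and its difference of 0.77 from IgG did not pass (SE 0.41, edgeR adjusted p = 0.178; 0.0031 with the block), nor did that of -1.13 between Staufen and hnRNPab labels (0.0558; 7.95e-05 with the block). The gene ncoa7.L, whose product is named as a nuclear receptor coactivator and is linked to resistance against oxidative damage, is in both deposited tables. It had 36.6, 63.6, 57.1 and 62.2 CPM in libraries labelled Staufen, 32.2, 65.3, 56.4 and 59.6 in those labelled hnRNPab and 40.9, 102, 79.6 and 90.3 in those labelled IgG. Replicate 1 was lowest in each group, and without IgG 1 the difference between hnRNPab and IgG labels (-0.55, edgeR adjusted p = 0.172) passed at 0.0268, as it did with the block (3.2e-09). Staufen over IgG labels gave -0.51 (0.407; 1.21e-07 with the block).

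The deacetylase genes divided evenly, 3 higher and 3 lower between hnRNPab and IgG labels. Higher were hdac3.S, the catalytic subunit of the NCoR complexes (0.61, edgeR adjusted p = 2.98e-05), hdac8.L, which deacetylates cohesin (1.33, 2.42e-05), and sirt3.2.L, of the mitochondrial sirtuin 3 type (1.70, 2.07e-05). For sirt3.2.L (gene3387) the libraries labelled Staufen had 93.3, 61.4, 63.5 and 66 CPM, those labelled hnRNPab 275, 176, 229 and 219.8 and those labelled IgG 89.2, 59.4, 69.6 and 60.2. Staufen and IgG labels overlapped, and every hnRNPab-labelled library was above them.

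Lower were the class IIa deacetylase genes hdac4.S and hdac5.L, whose products shuttle between nucleus and cytoplasm, and sirt4.L, another mitochondrial sirtuin (-0.57, 0.00879 in edgeR). The gene hdac4.S (gene4908) had 174, 158, 130.1 and 134 CPM in Staufen-labelled, 91.1, 78.8, 73.5 and 89.8 in hnRNPab-labelled and 135, 131, 102 and 111 in IgG-labelled libraries. Below both other groups lay the hnRNPab-labelled libraries, at -0.52 (log2, SE 0.13, edgeR adjusted p = 0.0062) against IgG, with the Staufen labels at 0.31 against IgG (0.179; 4.53e-05 with the block). For hdac5.L the corresponding values were -0.82 (0.000774) and 0.11 (0.852).

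Reader proteins made up the largest family, 14 genes, of which 5 were higher, 4 lower and 5 not passed between hnRNPab and IgG labels. The BET bromodomain genes brd3.S and brd2.S, whose products bind acetylated histones, were both among the rises. In brd3.S (gene50065) the libraries labelled Staufen held 160.5, 180.5, 173 and 152 CPM, those labelled hnRNPab 321, 295, 324 and 304 and those labelled IgG 94.3, 89.6, 83.3 and 71.7. The 3 groups did not overlap, and brd3.S had the largest rise of any member between Staufen and IgG labels, 0.97 (log2, SE 0.10, edgeR adjusted p = 0.00014), beside 1.88 (SE 0.10, 9.06e-08) between hnRNPab and IgG labels. In brd2.S these differences were -0.17 (0.552) and 0.79 (0.000232).

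Polycomb chromodomain genes were cbx2.S, cbx6.L, cbx6.S and cbx7.L, whose products read the repressive mark that the Polycomb methyltransferase makes. The values of cbx2.S (gene11813) were 122, 159, 152 and 156 CPM for Staufen-labelled, 114, 134, 145 and 148 for hnRNPab-labelled and 163, 217, 217 and 214 for IgG-labelled libraries, and all IgG-labelled libraries lay above the other 8. It fell by 0.59 (log2, SE 0.12, edgeR adjusted p = 0.00301) with the hnRNPab label and by 0.46 (SE 0.12, 0.0427) with the Staufen label. The authors' deposited hnRNPab table gave cbx2.S 1.13 (log2), with the opposite sign, as for all 20 members listed by that table alone. The call for the Staufen label was lost without any of 10 libraries (all but hnRNPab 1 and IgG 1, adjusted p 0.0542 to 0.125), without a filter or in a fit on the 2 groups alone, and passed with the block (3.77e-09). Between Staufen and hnRNPab labels cbx2.S was at 0.12 (0.508; 0.0346 with the block). The gene cbx6.S rose by 0.47 between hnRNPab and IgG labels (edgeR adjusted p = 0.0137). Neither cbx7.L (-0.20, 0.555) nor cbx6.L (0.094, 0.666) passed between hnRNPab and IgG labels, and with the block cbx7.L did (0.0383).

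Of the PHD finger genes, phf8.L rose and phf2.L and phf13.S fell between hnRNPab and IgG labels. The products of phf8 and phf2 belong to a family of histone demethylases, the only demethylases among the members by function. The gene phf8.L had 72.7, 62.9, 74.5 and 73.4 CPM in libraries labelled Staufen, 118, 111, 154 and 128 in those labelled hnRNPab and 70.1, 61.3, 79.9 and 71 in those labelled IgG, a difference of 0.85 for hnRNPab over IgG labels (log2, SE 0.12, edgeR adjusted p = 0.000124). For phf2.L (gene973) the values were 17.6, 21.2, 24.9 and 23.4 CPM under the Staufen label, 19.1, 19.3, 20.5 and 20.5 CPM under hnRNPab and 22.7, 35.2, 36.1 and 28.8 CPM under IgG. The library IgG 1 lay inside the range of those labelled Staufen. The differences from IgG were -0.49 for Staufen labels (0.0728; 0.013 without IgG 1 and 7.27e-06 with the block) and -0.63 for hnRNPab labels (0.00662). The gene phf3.L, whose product binds RNA polymerase, did not pass in any comparison without the block, at -0.55 for Staufen over IgG (0.4) and -0.53 for hnRNPab over IgG labels (0.224). With the block both passed (1.13e-08 and 2.16e-08).

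Both homeologs of asxl3, a Polycomb-associated scaffold of the deubiquitinase that acts on histone H2A, were in the hnRNPab table. The gene asxl3.L had 102, 186, 156 and 207 CPM with the Staufen label, 58.6, 116, 95.4 and 114 with hnRNPab and 109.7, 217, 164 and 228 with IgG. The gene asxl3.S had 51.6, 96, 91.5 and 114 CPM with the Staufen label, 32.9, 67, 55.4 and 68.8 with hnRNPab and 61, 128, 104 and 146 with IgG. Replicate 1 was the lowest of each group for both, and the hnRNPab-labelled library was the lowest of each number. Between hnRNPab and IgG labels they were at -0.90 (SE 0.28, edgeR adjusted p = 0.0259) and -0.97 (SE 0.31, 0.0292), and the calls were lost without hnRNPab 1, hnRNPab 3, IgG 2 or IgG 4, and for asxl3.S also without IgG 3 (0.0507 to 0.0889). With the block the adjusted p-values were 9.83e-17 for asxl3.L and 9.67e-17 for asxl3.S. Against IgG the Staufen labels were at -0.14 for asxl3.L (0.933; 0.0404 with the block) and -0.31 for asxl3.S (0.749; 2.88e-05). Against hnRNPab they were at 0.76 for asxl3.L (0.0551; 9.48e-15 with the block) and 0.66 for asxl3.S (0.13; 3.11e-12).

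In the remodeler class smarcc2.L, smarcd3.S and arid4a.L rose and arid3a.S fell between hnRNPab and IgG labels. The products of smarcc2 and smarcd3 are subunits of the BAF remodeler, that of arid4a works with the Sin3 deacetylase complex, and arid3a and arid3b encode DNA-binding factors rather than remodelers. BAF gene smarcc2.L (gene35021) had 30.7, 36.1, 33.5 and 35.2 CPM in Staufen-labelled, 47.1, 50.1, 57.5 and 55 in hnRNPab-labelled and 29.4, 28.8, 30.8 and 29.8 in IgG-labelled libraries. The hnRNPab-labelled libraries lay above the other 8, the order hnRNPab, Staufen, IgG held within each number, and the difference from IgG was 0.82 for hnRNPab labels (log2, SE 0.09, edgeR adjusted p = 2.4e-05) and 0.19 for Staufen labels (0.286; 0.0218 with the block). The gene arid4a.L was at 0.96 for hnRNPab over IgG labels (0.00243) and -0.27 for Staufen over IgG labels (0.592; 0.00354 with the block). For smarcd3.S the values against IgG were 0.95 (0.00142) and 0.39 (0.266; 3.82e-07 with the block). The level of arid3a.S (gene16083) was 629, 571, 477 and 528 CPM in Staufen-labelled, 371, 389, 321 and 338 in hnRNPab-labelled and 622, 609, 494 and 585 in IgG-labelled libraries, a difference of -0.70 for hnRNPab over IgG labels (SE 0.11, edgeR adjusted p = 0.000307). Its relative arid3b.L, listed in both tables, was at 0.33 (0.143; passed without hnRNPab 1 at 0.0477 and with the block at 2.83e-07) for hnRNPab over IgG labels and at -0.19 for Staufen over IgG labels (0.694; 0.00292 with the block).

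Mediator was represented by med1, med18.S and med27.L. Its subunit med1 (gene15950), the contact of nuclear receptors, had 169, 126, 119.9 and 112 CPM in the libraries labelled Staufen, 432, 338, 355 and 315 in those labelled hnRNPab and 163, 113, 116 and 103 in those labelled IgG. The hnRNPab-labelled libraries were above the other 8 and Staufen and IgG labels overlapped, with log2 differences from IgG of 1.54 (SE 0.17, edgeR adjusted p = 2.48e-05) for hnRNPab and 0.091 (0.923) for Staufen labels. The head subunit gene med18.S was at 0.88 (0.00581) and med27.L at -0.88 (0.00405) between hnRNPab and IgG labels.

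**Figure D4:**
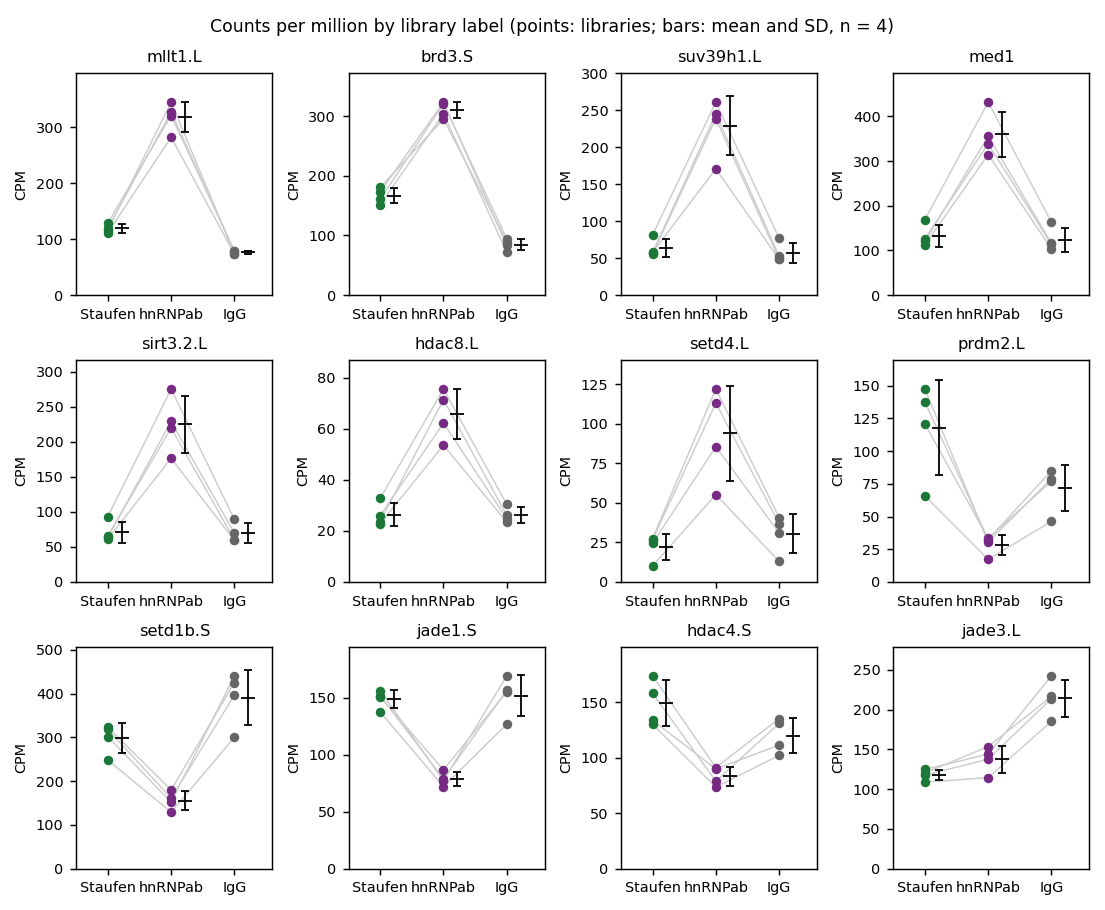
CPM of 12 members in each library; grey lines join libraries with the same replicate number, and bars give the mean and SD (n = 4). From mllt1.L to setd4.L the hnRNPab-labelled libraries are highest, from prdm2.L to hdac4.S they are lowest, and for jade3.L the IgG-labelled libraries are highest.

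Homeologs of a gene did not always share a table. Of the 57 members with a .L or .S suffix, 37 had the other copy in the reference by symbol. For 23 of these neither table named that other copy. Both copies were members for 7 genes. For 3 of them the copies had the same listing (asxl3, cbx6 and jade1) and for 4 they differed (ncoa4, jade3, brd1 and phf13). In ncoa4, jade3 and brd1 each copy is listed by a different table alone. That listing fixes opposite signs for their copies between hnRNPab and IgG labels, so their moving apart there supports nothing further. The ratio of the .L to the .S copy within a library cancels its depth. Because transcript lengths are not given, the ratio is read only for how it moves between groups, and reads may be assigned to the wrong copy where the copies are alike.

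The widest gap was in ncoa4, named as a nuclear receptor coactivator and known as the receptor that sends ferritin to lysosomes. Its .L copy (gene11851) had 30.9, 39.8, 24.9 and 35.8 CPM in Staufen-labelled, 93.1, 95.8, 73.2 and 108 in hnRNPab-labelled and 27.7, 37.5, 31.1 and 38.8 in IgG-labelled libraries, and its .S copy (gene15485) 94.7, 117, 141 and 107 CPM in Staufen-labelled, 67, 80.04, 93.5 and 90.3 in hnRNPab-labelled and 101, 136, 144 and 125 in IgG-labelled ones. Under the hnRNPab label the .L copy was thus highest and the .S copy lowest, and against IgG labels the listing fixes these signs. Log2 of .L over .S was -1.81 ± 0.46 with the Staufen label, 0.16 ± 0.36 with hnRNPab and -1.90 ± 0.22 with IgG (mean ± SD, n = 4). Against IgG, the hnRNPab labels gave 1.45 for the .L copy (SE 0.17, edgeR adjusted p = 3.61e-05) and -0.61 for the .S copy (SE 0.15, 0.00756).

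In jade3 the copies also went apart, again with signs that the listing fixes between hnRNPab and IgG labels. The .S copy (gene3742) had 26.4, 27.1, 25.5 and 27.1 CPM with the Staufen label, 52.8, 51.1, 61.4 and 61.7 with hnRNPab and 33.7, 27.2, 28.3 and 24.8 with IgG, rising by 0.99 between hnRNPab and IgG labels (log2, SE 0.11, edgeR adjusted p = 2.22e-05) where the .L copy fell by 0.64. The log2 ratio of .L to .S was 2.15 ± 0.09 for Staufen, 1.27 ± 0.13 for hnRNPab and 2.92 ± 0.34 for IgG labels, without overlap between the 3 groups.

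For brd1, a bromodomain scaffold of acetyltransferase complexes, the copy brd1.L (gene16400) had 41.3, 68.5, 80.2 and 73.1 CPM under the Staufen, 55.5, 85.9, 81.6 and 89.3 CPM under the hnRNPab and 47.2, 69.4, 77 and 77.2 CPM under the IgG label. Its .S copy (gene9314) had 82.8, 137, 135 and 123 CPM under the Staufen, 63.4, 89.8, 94.7 and 102 CPM under the hnRNPab and 129, 207, 209 and 220.3 CPM under the IgG label. The .S copy fell by 1.13 between hnRNPab and IgG labels (SE 0.21, edgeR adjusted p = 0.00116), while the .L copy was at 0.21 (SE 0.22, 0.544; 0.00212 with the block). Staufen against IgG labels gave -0.68 for .S (0.0713; 3.67e-12 with the block). Staufen against hnRNPab labels gave -0.25 for .L (0.454; 0.000218) and 0.45 for .S (0.122; 1.72e-08). The ratio was -0.88 ± 0.14 with Staufen, -0.17 ± 0.069 with hnRNPab and -1.50 ± 0.062 with IgG labels, again without overlap. In phf13, a reader of active promoters, .S fell by 0.49 (0.000485 in edgeR) and .L was at -0.024 (0.917).

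Between hnRNPab and IgG labels, where the tables go with the sign, the .L minus .S difference of the log2 changes was nearer 0 for the 3 pairs with the same listing. It was 0.065 for asxl3, 0.21 for jade1 and -0.37 for cbx6, against 0.46 for phf13, 1.33 for brd1, -1.64 for jade3 and 2.07 for ncoa4. The other comparisons did not sort the pairs in that way. Between Staufen and IgG labels the difference was 0.17 for asxl3, -0.19 for jade1 and 0.28 for cbx6, against 0.023 for phf13, 0.64 for brd1, -0.76 for jade3 and 0.10 for ncoa4. Between Staufen and hnRNPab labels it was 0.11 for asxl3, -0.41 for jade1 and 0.65 for cbx6, against -0.44 for phf13, -0.70 for brd1, 0.88 for jade3 and -1.97 for ncoa4. The tables rest on the same enrichments, and the order of the pairs was not tested.

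**Figure D5:**
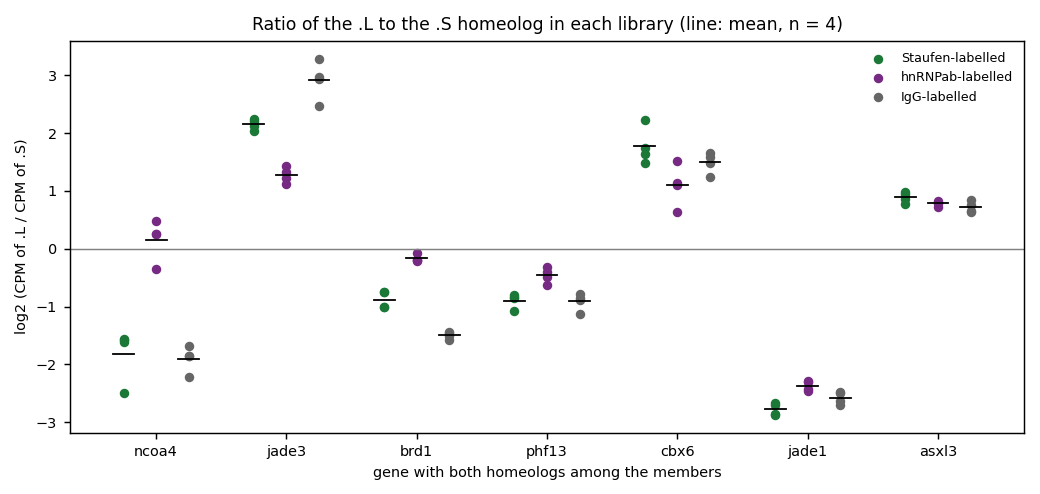
Log2 ratio of CPM of the .L to the .S copy in each library for the 7 genes with both copies among the members, by library label; lines are means (n = 4). The 3 groups are apart for jade3 and brd1, the hnRNPab-labelled libraries are apart from the rest for ncoa4, phf13 and jade1, and the groups overlap for asxl3 and cbx6.

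The 7 members in both tables did not follow 1 order. They are cbx6.L, cbx6.S, phf13.S, phf2.L, ing4.L, arid3b.L and ncoa7.L, and their summed level was 525 ± 39.5 CPM in the libraries labelled Staufen, 528 ± 49.6 in those labelled hnRNPab and 577 ± 64.5 in those labelled IgG (SD, n = 4). The 32 members of the Staufen table alone were all highest on average under the hnRNPab label, 20 of them with IgG next and 12 with Staufen next. Of the 20 in the hnRNPab table alone, 15 averaged highest under IgG and 5 under Staufen (prdm2.L, hdac4.S, hdac5.L, mllt10.L and sirt4.L). All 1974 tested genes of the Staufen table alone were higher under hnRNPab than IgG labels (log2 difference 0.000252 or more). All 1482 of the hnRNPab table alone were lower (-0.0237 or less). The listing thus fixes the order of these 2 labels, and it supports nothing further about the members. The gene cbx6.L passed in none of the 3 comparisons, with or without the block (48.8, 54.7, 63.4 and 56.1 CPM under Staufen, 42.2, 50.1, 66 and 60.4 CPM under hnRNPab and 47.7, 52.5, 49.5 and 55.2 CPM under IgG labels), whereas the authors' deposited tables gave it 1.31 for Staufen and 1.21 for hnRNPab.

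Chromatin genes outside the name rule were in both tables too. A list of 206 symbols for other Polycomb, COMPASS, acetyltransferase, corepressor, remodeler, chaperone, cohesin and arginine methylation genes matched 57 named genes, of which the Staufen table alone listed 23, the hnRNPab table alone 28, and 6 were listed in each. Between hnRNPab and IgG labels 24 were higher and 24 lower of 57 (edgeR; 16.3% and 17.4% of all genes), with a median of -0.23. Cohesin, condensin and insulator genes were mostly among the rises, 8 higher and 1 lower of 11, led by the cohesin subunit gene rad21.L (2.76), the condensin gene ncapd2.S (1.80) and rad21.S (1.51), with the cohesin release factor gene wapl.S at -1.90. Of the Polycomb list 4 of 8 rose, led by eed.S (0.78), and 4 fell, led by pcgf5.L (-1.04) and scmh1.L (-0.90).

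Corepressor genes gave 3 higher and 8 lower of 11, with zmynd11.S (2.05), mbd1.S (1.17), trim33.S (-1.21) and sap30.L (-1.20) the farthest from 0. Histone chaperone and high mobility group genes gave 2 higher and 5 lower of 7, with hmgn2.L (2.08), hmga2.L (-1.57), ubn2.S (-1.54) and hmgn1.S (1.45) at the ends. Remodelers outside the rule gave 0 higher (1 with DESeq2 and 1 at an unadjusted p under 0.05) and 4 lower of 7 with edgeR, and bcl7a.S (-1.92) and atrx.L (-1.48) were the lowest. Of the other acetyltransferase complex genes 3 of 5 rose and 1 fell (msl1.S 1.14, atxn7.L -0.48), and of the COMPASS and related writers 1 of 4 rose and 1 fell (nsd2.S 0.94, dot1l.L -1.01). The class of arginine methylation and DNA methylation readers matched only tdg.S, uhrf1.S, uhrf2.S and zbtb33.S, and no arginine methylation gene. Of these, 3 of 4 rose (zbtb33.S 0.94). Values are log2 differences of hnRNPab over IgG labels, and each gene given with a value here passed with edgeR. As for the members, a listing by 1 table alone fixes the sign. It does not for the 6 genes in both tables, rad21.S among them.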

How the data were processed

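Per the labels, RNA from X. laevis oocyte fractions was sequenced after immunoprecipitation, and per the submitters' processing notes reads were processed with STAR 2.6.1b, HTSeq 0.9.1 and edgeR (the genome build is not given in the sources used here). In all, 12 files deposited by the authors hold raw read counts per gene with no gene names. The authors' 2 deposited tables give a gene name, log2 fold change, log2 mean expression, an F score and a p-value per gene, and those values are used only to choose and describe members. The replicate number and group come from the labels, and 0 columns of samples were left unused.

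Counts were fitted with edgeR 4.0.16 (R 4.3.3): genes with low counts removed by filterByExpr, TMM scaling, 1 quasi-likelihood fit over the 12 libraries with group as the only term, and Benjamini-Hochberg adjustment over the 20803 genes kept. CPM uses TMM-scaled library sizes and is not corrected for transcript length. The standard error is the size of the log2 fold change over the root of F. Reads that HTSeq counted to no feature, 11.0 to 19.6% of counts plus such reads in a library, and other summary lines were left out of library sizes. The floor covers counting error only, while the SDs and standard errors reflect spread between libraries.

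The members and the gene lists were chosen with earlier results of these data known. Members were named by rules of size: up to 2 rises and 2 falls by family and comparison among those past the threshold with a mean of at least 5 CPM, the 8 with most reads, both copies of a homeolog pair, members in both tables, and the 3 nearest each table's threshold. Rules named 48 members, and the other 11 (hdac3.S, hist1h2aj.L, phf3.L, ash2l.L, kat2b.S, cbx7.L, hist1h4a.L, prdm10.L, suv39h2.L, phf8.L and tet3.S) were added after their values were seen, so that every member is given. Other chromatin genes were named by size, up to 4 a class.

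Libraries with the same number were checked for pairing by the correlation of their deviations from the group means: r was 0.783 to 0.875 in 12 same-numbered pairs and -0.508 to -0.0593 in 36 others, so the numbers pair the samples, and values with the replicate number as a block are given where they change a call. No 2 libraries of the same group agreed within sampling noise. The alternatives were DESeq2 size factors, no filter, 2 groups only, the block, DESeq2 1.42.0, and each library left out of the fit without the block. Leaving out replicate 1 of all 3 groups was added after seeing the data. Gene symbols were matched to the Xenopus_laevis_v10.1 RefSeq table for names only, since the build of the files is not stated. Sequences are not shown.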

Additional observations from a re-analysis of the deposited data

Results flagged for a closer look

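Single libraries stood apart in 19 of the 177 groups of 4 libraries tested over the 59 members (10.7%, where chance gives about 1 in 20), by the gap to the nearest library as a share of the range. Of these, 16 were replicate 1, in all 3 groups. Same-numbered libraries deviated together, so the groups tested are not independent of each other. No share over all genes is given, so the 10.7% is not read as particular to the members.

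Replicate 1 was the high library for histone genes: hist1h2bj.S at 3116 CPM in Staufen 1 (next 1887), 6568 in hnRNPab 1 (next 3601) and 3380 in IgG 1 (next 2056), hist1h3g.L at 248.4 CPM in Staufen 1 and 248.3 in IgG 1, hist1h2ad.1 at 324.4 CPM in Staufen 1, and hist2h3c.L at 3594 CPM in IgG 1. It was also high for suv39h1.L, at 81.3 CPM in Staufen 1 and 77 in IgG 1, sirt3.2.L, at 93.3 CPM in Staufen 1, med18.S, at 110.6 CPM in Staufen 1, and cbx5.L, at 38.7 CPM in hnRNPab 1. It was low for jade1.L, at 13.1 CPM in hnRNPab 1, jade2.L, at 262.3 CPM in IgG 1 (next 423.6), cbx2.S, at 163.3 CPM in IgG 1, and brd1.S, at 129.4 CPM in IgG 1 (next 207).

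The 3 other libraries were Staufen 3 for setd4.L, at 10.1 CPM (next 24.5), Staufen 2 for phf8.L, at 62.9 CPM (next 72.7), and hnRNPab 3 for kat2b.S, at 5.16 CPM (next 2.07).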

How the results depend on the processing

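Member counts between hnRNPab and IgG labels, and between Staufen and hnRNPab labels, stayed within 1.5 times their value in every alternative: with 1 library left out, 23 to 29 higher and 17 to 20 lower, and 11 to 15 higher and 23 to 30 lower. Between Staufen and IgG labels the 2 higher and 2 lower members moved. Higher members numbered 2 to 3 with 1 library left out, 8 with the replicate block and 8 with the block and without replicate 1 of all 3 groups. Lower members numbered 1 to 6 with 1 library left out, 1 with no filter, 1 in a fit on the 2 groups only, 4 with DESeq2, 7 without replicate 1, 20 with the block and 18 with the block and without replicate 1. The cause was not tested. No call of a member reversed in any of these alternatives.

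The replicate block kept every call of a member made without it, and added 24 between Staufen and IgG labels, 10 between hnRNPab and IgG labels and 10 between Staufen and hnRNPab labels. Over all genes it called 3944 higher and 4259 lower between Staufen and IgG labels, against 925 and 693 without it, and 6505 and 6937 between hnRNPab and IgG labels, against 3388 and 3617. For Staufen against IgG labels, no filter gave 741 and 442 and DESeq2 1383 and 1233.

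Of 273 fits of the 59 members and 32 other named genes, the replicate block moved most: 206 kept their side of the threshold and 67 newly passed, with or without replicate 1. Without replicate 1 of all 3 groups and with no block, 243 kept it, 26 newly passed and 4 lost it. With the other size factors 272 kept it (1 lost), with DESeq2 261 (12 newly passed), with no filter 264 (9 lost) and with 2 groups only 265 (3 newly passed, 5 lost). How reads were divided between homeologs and between histone copies could not be examined. At 14147584 or more counts a library the floor of 3 counts lies below every member's level.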
